A study of Mus musculus with 19 samples.

Results

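Transcripts that nanopore sequencing of native RNA gave for Mettl14 knockout (KO) neural progenitor cells were set against those it gave for direct cDNA of the same genotype. The comparison takes the 4 nanopore libraries labelled Mettl14 knock out, of 19 samples in the series, and they were chosen by their labels and not by any measured value. The authors pooled the 2 native RNA libraries into 1 assembly of transcripts and the 2 direct cDNA libraries into another, so every value is that of 1 assembly and no difference between the chemistries has a replicate check. The cells came from cortices of conditional knockout mouse embryos and were grown on Matrigel with FGF2, EGF, heparin and B27, and the wild-type (WT) cells named as a side value came from WT embryos and were grown alike. The driver of the deletion, the age of the embryos and whether the 2 libraries of a group came from separate cultures are not given in the sources used here. RNA was extracted with TRIzol, and native RNA libraries were made with the standard kit of the maker. Direct cDNA libraries were made from purified total RNA to which 2 control RNAs had been added. The series also holds 4 KO short-read libraries, called ladder libraries here, in which mRNA was parted by length before sequencing and which serve as a reference for gene levels.

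In native RNA sequencing the RNA strand itself is drawn through the pore from its 3′ end, after an adapter has been joined at the poly(A) tail, so a read that ends early lacks the 5′ part of the transcript. In direct cDNA sequencing the RNA is first copied from an oligo(dT) primer, and either strand of the unamplified cDNA can be read. An assembler then joins overlapping reads into transcripts, each with its exons and its intron chain, which is the ordered set of its intron ends. Mettl14 binds Mettl3 in the complex that places N6-methyladenosine (m6A) on mRNA, a mark that is dense near stop codons and in long exons.

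The deleted gene was checked first. Mettl14 lies on the minus strand at chr3:123368297-123386108 (GRCm38) and has 11 annotated exons, of which exons 7, 8 and 9 together hold 352 bases. No Mettl14 transcript of either KO assembly touched these 3 exons, while each WT assembly held a transcript with all 11. The joint that skips them, from exon 6 to exon 10, was in 1 native RNA and 2 cDNA transcripts of the KO and in none of the WT, and the joints into and out of the missing stretch were in 1 transcript of each WT assembly and in none of the KO. The 3 joints are shown as 15 bases from each side, in the order of the mRNA, from GENCODE M21 transcripts. Capitals mark the bases after the joint.
Exon 6 to exon 7, chr3:123376145-123376159 and chr3:123374872-123374886, minus strand: aaacactcctcccatGTACTTACAAGCAGA
Exon 6 to exon 10, chr3:123376145-123376159 and chr3:123371471-123371485, minus strand: aaacactcctcccatGAGCATTGCCTGATG
Exon 9 to exon 10, chr3:123372557-123372571 and chr3:123371471-123371485, minus strand: ttccagagaacaaagGAGCATTGCCTGATG
In the KO, the transcripts with the joint from exon 6 to exon 10 were the least abundant Mettl14 transcript in native RNA, at 2.61 TPM, and stood at 0.565 and 0.146 TPM in cDNA. TPM is the abundance of a transcript per 1000000 transcripts of its assembly, and TPM of the 2 assemblies cannot be set side by side for reasons given with the gene levels. Both chemistries thus gave a transcript that carries the joint across the deleted exons.

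Markers of the labelled cell type were present in both chemistries. Of 17 neural progenitor genes, 16 had a transcript on their exons in native RNA and 16 in cDNA. Their gene levels, given as rescaled TPM as defined with the gene comparison, summed to 7011 and 7008. Fabp7 alone gave 4239 and 4077 of these sums. Vim, an intermediate filament protein of progenitors, was at 1611 and 1316, and Slc1a3, a glutamate transporter of radial glia, at 273 and 268. Nes and Sox9 of the same list were at 0 in native RNA, and at 238 and 125 in cDNA. Microglia, endothelium and red cell lists of 5 genes each summed to 0 in both chemistries. The fibroblast list of 5 genes summed to 0 in native RNA and to 7.66 in cDNA. Counted by exons, as for the progenitor genes, these lists were not empty. The microglia list had 1 gene with a transcript on its exons in native RNA and 2 in cDNA. The endothelium and red cell lists each had 0 in native RNA and 1 in cDNA, and the fibroblast list had 0 and 2. Astrocyte genes summed to 1096 and 1163 and neuron genes to 1302 and 1392. The oligodendrocyte lineage list stood apart, at 68.4 in native RNA and 655 in cDNA. Most of the cDNA sum was from Olig2 (529), which is described with the genes higher in cDNA, and most of the native RNA sum was from Cnp (43.1). These sums leave out Olig1, which has no annotated intron level and had 764 deposited TPM on its exons in native RNA and 15.04 in cDNA. By exons Olig2 had 406 and 33.5 deposited TPM. These deposited values of Olig1 and Olig2 cannot be set side by side between the assemblies. With genes assigned by exons and the median of all genes set to 0, the log2 difference of Olig2, native RNA minus cDNA, was 0.26. It was -4.33 by annotated introns, so the result for Olig2 depends on how genes are assigned.

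The assembly of native RNA held 19095 transcripts and that of cDNA held 54882. Their coverage, summed over all assembled bases, came to 1.37 gigabases in native RNA and 6.25 gigabases in cDNA, so the cDNA assembly rests on more sequence, and the part of this in the results was tested only by cutting the assemblies to equal numbers. The part of this coverage that lay in transcripts with an annotated intron was closer, at 1.05 and 1.66 gigabases. Read numbers are not given in the sources used here. Transcripts of several exons had a median length of 1843 bases and 7 exons in native RNA, against 2529 bases and 8 exons in cDNA. Of them, 2.08% reached 6 kb in native RNA and 14.5% in cDNA. WT assemblies had the same order, with 3.86% and 17.1%. FLAIR, another assembler that the authors ran on the same reads, gave a smaller gap in the KO, with 1.63% and 5.85%. Its multi-exon transcripts had median lengths of 1921 bases in native RNA and 2193 in cDNA.

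Transcripts of 1 exon made up 3937 of the native RNA assembly (20.6%) and 24709 of the cDNA assembly (45.0%). In WT the shares were 18.3% and 45.6%. FLAIR gave 27.1% and 43.5% for the KO. The order turned when the assemblies were cut to the same number of transcripts: of the 19095 cDNA transcripts with the highest TPM, 15.2% had 1 exon, below the 20.6% of native RNA. Many of the single-exon transcripts of cDNA were therefore of low TPM. Nearly all of them carried no strand, with 24079 cDNA transcripts and 51 native RNA transcripts unstranded in the whole assemblies.

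The 2 chemistries placed their single-exon transcripts differently. In native RNA, 82.3% of them lay on an annotated exon (95% exact binomial interval 81.0 to 83.5), 4.55% inside an intron and 9.6% between genes. In cDNA, 24.0% lay on an exon (interval 23.5 to 24.5), 61.6% inside an intron and 14.1% between genes. WT gave 77.6% on an exon in native RNA and 23.0% in cDNA. These intervals cover counting error only. The intronic pieces of cDNA had a median of 1081 bases and held 8.52% of the deposited TPM. That length was near the 1077 bases of cDNA pieces on exons and the 1106 bases of intronic pieces in native RNA.

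**Figure D1:**
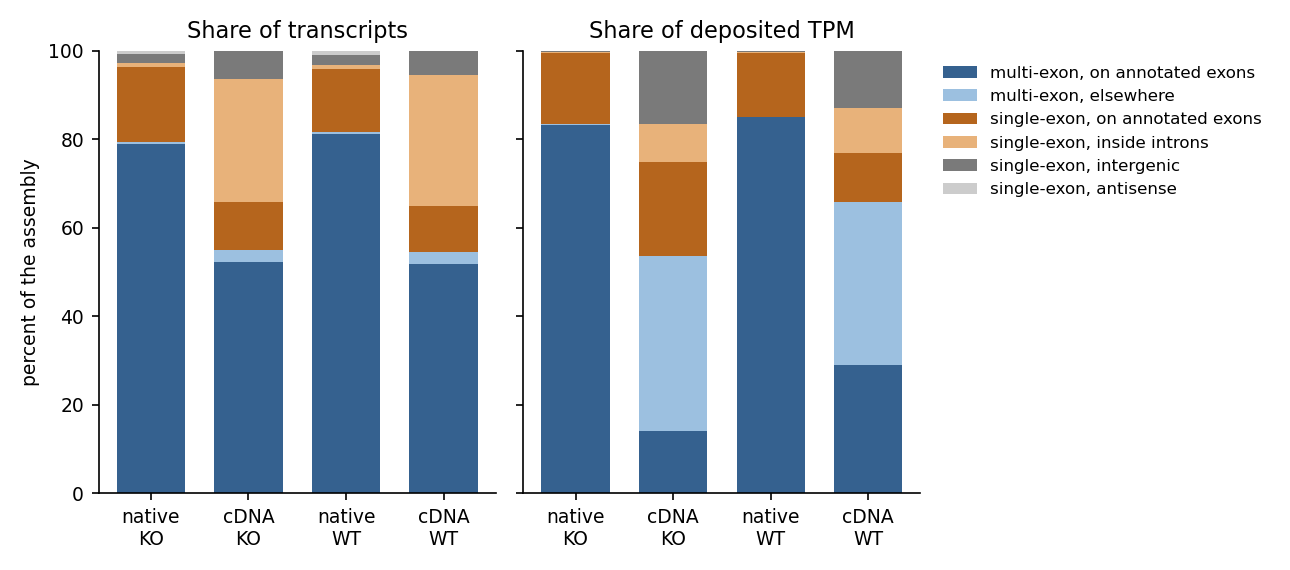
Stacked bars give the percent of transcripts (left) and of deposited TPM (right) by exon number and place, for the native RNA and cDNA assemblies of KO and WT. Single-exon transcripts inside introns are a broad band in both cDNA assemblies and a thin one in native RNA, and multi-exon transcripts away from annotated exons take a large part of cDNA TPM.

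Intronic pieces were spread over many genes in cDNA. There, 16052 gene and piece pairs fell in 6063 genes, of which 190 genes held 10 or more, while native RNA gave 183 pairs in 173 genes and no gene with 10. Lsamp, a cell adhesion protein of limbic neurons whose gene spans 2197 kb (chr16:39984361-42181679), held 124 pieces in cDNA and 0 in native RNA. Npas3, a transcription factor of the developing forebrain, held 71 and 0. Nlgn1, which codes for a postsynaptic adhesion protein, held 51 and 0, and the adhesion gene Ntm held 48 and 0. The same genes held 159, 61, 55 and 62 pieces in WT cDNA, in that order. These 4 genes were taken from among the top of the list of piece counts after the counts were seen, and long genes have more intron in which a piece can lie.

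A few features took much of the TPM that cDNA reads were given. The 5 single-exon transcripts of highest TPM held 37.4% of the cDNA total and 1.63% of the native RNA total. In cDNA the highest was a piece of 505 bases between genes at chr3:5860333-5860837, with 95638 TPM. A piece of 414 bases on an exon of Lars2, the mitochondrial leucyl-tRNA synthetase, had 73968 TPM at chr9:123461793-123462206, and no single-exon piece was assembled there in WT cDNA. A transcript of 2 exons without an annotated intron that ends inside this piece had 45365 TPM in the KO and 9748 in WT cDNA. A piece at the small RNA gene Gm23935 had 72940 TPM in the KO and 72527 in WT cDNA. A piece in an intron of Cdk8, a kinase of the Mediator complex, had 34266 TPM. Native RNA gave 182 TPM at the first of these 4 places, 0 at the second and the third, and 21.5 at the Cdk8 intron. In native RNA the 5 highest were of another kind: Gm10123, Rps3a3, Rps12-ps3, Gm12918 and Rpl31-ps8, with 2792 to 4137 TPM each. The annotation lists 4 of these 5 as processed pseudogenes and Rps12-ps3 as protein coding, and 3 carry names of ribosomal proteins. Reads of such copies and of their parent genes can be exchanged in alignment, so these values are uncertain.

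Multi-exon transcripts without any annotated intron added to the difference. They numbered 2547 in cDNA with 46.0% of its TPM, and 298 in native RNA with 3.56%. In cDNA the 12 highest of them held 35.9% of all TPM. Transcripts that hold an annotated intron thus carried 79.8% of TPM in native RNA and 7.61% in cDNA, and 81.7% and 6.17% in WT. By biotype, protein coding genes took 85.4% of TPM in native RNA and 22.8% in cDNA, processed pseudogenes 11.4% and 2.4%, and transcripts on no annotated exon 0.521% and 64.9%. Much of the coding share of cDNA lay at Lars2, where the single-exon piece held 8.89% of TPM and the transcript of 2 exons 5.46%. Single-exon transcripts on coding genes took 9.57% of TPM in KO cDNA and 0.426% in WT cDNA. The mitochondrial genome took 2.83% in native RNA and 0.6% in cDNA. In WT it took 2.01% and 2.13%, so that order held in the KO alone.

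The 3′ ends of single-exon transcripts also differed. The ends that could be read in annotated exon sequence were searched for AATAAA, the signal that directs cleavage and polyadenylation, in their last 50 bases on the strand of the transcript. A transcript without a strand took that of the exons it lay on. In native RNA 1100 of 1584 readable single-exon ends held the signal (69.4%, exact interval 67.1 to 71.7), against 617 of 1788 in cDNA (34.5%, interval 32.3 to 36.8). Multi-exon transcripts were closer, with 59.8% in native RNA and 53.0% in cDNA. The same letters stood in 40.6% of the ends of annotated coding transcripts and in 1.98% of all 50-base windows along them. WT gave 66.5% and 34.9% for single-exon ends. With the transcripts that carry a strand in the file alone, 1571 in native RNA and 152 in cDNA, the shares were 69.7% and 36.2%. With ATTAAA also counted, the KO shares were 83.2% and 42.1%. Single-exon ends lay within 50 bases of an annotated 3′ end in 67.8% of cases in native RNA and 27.3% in cDNA. Readable ends were 40.2% of the native RNA single-exon transcripts and 7.24% of the cDNA ones, since most cDNA pieces lie outside exons.

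Stretches of 12 or more adenines in the 20 bases after the end, which mark places where an oligo(dT) primer can bind within a transcript, were found at 3.81% of readable single-exon ends in native RNA (21 of 551) and 3.26% in cDNA (39 of 1197). The exact intervals, 2.37 to 5.77 and 2.33 to 4.43, overlapped. At 15 adenines the shares were 1.81% (10 ends) and 0.418% (5 ends). Multi-exon ends had 0.384% and 0.549%, and all 20-base windows of annotated coding transcripts 1.00%. Intronic pieces were outside the sequence read here and were not searched.

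The end sequences below are of 2 kinds. The first 5 are the native RNA pieces with a readable end at the 12 named genes listed at 0 in native RNA. The others are the 3 pieces of highest TPM of each chemistry on coding genes with 3 exons or more, among those with a readable end that could be shown. Each is a window of 30 bases near the end of the piece, read from GENCODE M21 transcripts in GRCm38, and capitals mark AATAAA.
Trim32, native RNA, chr4:65616201-65616230, plus strand: aagcattaaactAATAAAagtaataacttt
Arhgap35, native RNA, chr7:16493733-16493762, minus strand: tgtgagccgcccAATAAAccgaacttgggt
Hmgn5, native RNA, chrX:109004540-109004569, minus strand: tggatttatcatAATAAAagagttccacaa
Vgll4, native RNA, chr6:114859892-114859921, minus strand: cttaagaacaatAATAAAgtgctcttaaac
Sox9, native RNA, chr11:112787715-112787744, plus strand: attattgtttacAATAAAtatacattgcat
Wdr89, native RNA, chr12:75630936-75630965, minus strand: tgctcccctgcaAATAAAgtctttttatgt
Gm20498, native RNA, chr12:81359030-81359059, minus strand: ctcccacaaaAATAAActatatatataaaa
Dag1, native RNA, chr9:108204873-108204902, minus strand: catatcaaactaAATAAAagcagtgtcttt
Lars2, cDNA, chr9:123462177-123462206, plus strand: aggaaccgcagctagcttgtgtctccagtg
Wdr89, cDNA, chr12:75630932-75630961, minus strand: cccctgcaAATAAAgtctttttatgtatct
Mdfic, cDNA, chr6:15802139-15802168, plus strand: tttaaaattaaaaagaattatgatgactga
In the first 5 native RNA pieces the signal began 22 to 32 bases before the end of the piece, and 4 of the 5 ended within 50 bases of an annotated 3′ end, Vgll4 being the exception. In the other 3 it began 36 to 40 bases before the end. The Lars2 and Mdfic pieces held no AATAAA in their last 50 bases, which says only that these letters are not in that window.

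Intron chains were then matched exactly between the chemistries. Native RNA gave 15158 chains and cDNA 30173, with 8587 in both, which is 56.7% of the native RNA chains and 28.5% of the cDNA chains. The shared chains held 82.0% of the multi-exon TPM of native RNA and 11.3% of that of cDNA. Most multi-exon TPM of cDNA lay in transcripts without any annotated intron, with 46.0% of all its TPM. Those with an annotated intron had 7.61%. The 11.3% thus does not measure how much of the TPM in transcripts with an annotated intron is shared. Of the shared chains 80.7% were annotated. Single introns were shared more often, with 71604 in both chemistries out of 75669 in native RNA and 124907 in cDNA. The annotation held 97.5% of the native RNA introns and 91.7% of the cDNA introns.

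The 6571 chains found in native RNA alone were often shortened ones. The introns of 44.0% of them formed an annotated chain that lacked introns at its 5′ end, against 4.0% that lacked introns at the 3′ end. Of all 6571, 54.8% lay whole inside a longer cDNA chain, and 61.3% used introns that cDNA had found too. Annotated chains made up 18.7% of this set, with a median annotated length of 1553 bases, and 12.2% of those were annotated as retained intron transcripts. The highest shortened chain was at Rplp0, a protein of the ribosomal stalk, where 6 exons from chr5:115559760-115563586 had 3985 TPM, and it was also in WT native RNA and not in WT cDNA. The next were at Rps4x, a protein of the small ribosomal subunit, with 2050 TPM, and at Eef2, the elongation factor that moves the ribosome along mRNA, with 13 exons and 905 TPM, and neither of these chains was in a WT or a FLAIR assembly. In WT native RNA 21.1% of the chains found in native RNA alone were found again, and 12.2% of those lacking 5′ introns. Annotated chains in native RNA alone were led by Rps15a with 3063 TPM, Rpl8 with 2782, and the alpha tubulin genes Tuba1a and Tuba1b with 2417 and 2309. For Rpl8, Tuba1a and Tuba1b the same chain was in the FLAIR assembly of cDNA, so it was missing from the StringTie assembly of cDNA and not from both.

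The 21586 chains found in cDNA alone were of more kinds. Annotated chains were 23.4% of them, with a median annotated length of 3373 bases against 2088 for the shared ones, and 14.6% of these annotated chains were 6 kb or longer, against 2.52% of those in native RNA alone. New combinations of annotated introns made up 17.0%, chains with some intron end not annotated 23.2%, and chains with no annotated intron end 10.1%. Chains that lacked 5′ introns were 7.05%. In WT, the cDNA assembly held 28.0% of these chains and the native RNA assembly 9.88%. For the annotated ones the WT cDNA share was 66.7%, and for chains with some intron end not annotated it was 9.30%. Annotated chains in cDNA alone included Tpt1, a growth-related protein, with 6 exons and 96.6 TPM, and Eif3a, the largest subunit of an initiation factor, with 22 exons over 5206 bases and 23.3 TPM. The Tpt1 chain was in WT native RNA and in the FLAIR assembly of KO native RNA, and the Eif3a chain was in neither. Among chains that were not annotated, Txn1 (thioredoxin), Ccnd2 (cyclin D2) and Actb (beta actin) had an unannotated intron end and 180, 92.1 and 74.6 TPM. Those of Ccnd2 and Actb were also in WT cDNA, and none of the 3 was in FLAIR cDNA.

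**Figure D2:**
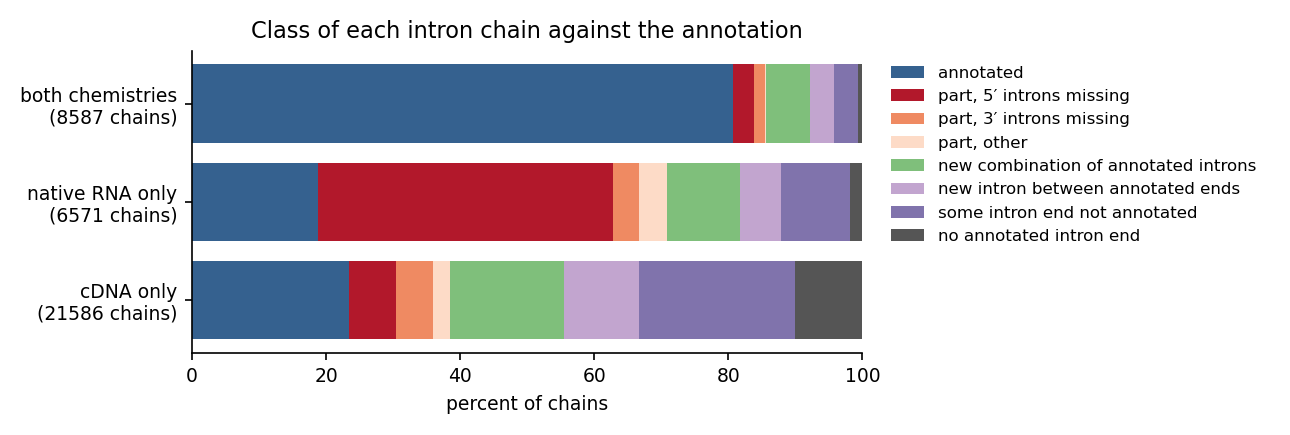
Horizontal bars give the percent of intron chains in each annotation class for the chains found in both chemistries, in native RNA alone and in cDNA alone. Chains lacking 5′ introns fill the largest part of the native RNA bar, and the cDNA bar holds a mixture of annotated chains, new combinations and unannotated intron ends.

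Introns that the annotation lacks were checked for the GT and AG letters at which most introns begin and end. Only introns inside annotated exon sequence could be read. GT-AG stood at 435 of 491 such introns in native RNA (88.6%, exact interval 85.4 to 91.3) and at 1873 of 2302 in cDNA (81.4%, interval 79.7 to 82.9). Annotated introns gave 98.6% and 98.5%. In WT the unannotated introns gave 84.0% and 80.2%.

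Transcripts that ran from one gene into the next were rare in both assemblies, at 30 of 14860 native RNA transcripts with an annotated intron and 383 of 27626 cDNA transcripts. Those of cDNA had a median length of 10641 bases. The highest in cDNA joined Nme1 and Nme2, neighbours that code for nucleoside diphosphate kinases and whose joint transcript the annotation lists as Gm20390, with 32.2 TPM. FLAIR gave 46 such transcripts in each chemistry. An annotated intron was kept inside an exon by 6.69% of native RNA transcripts and 12.5% of cDNA transcripts, which carried 2.46% and 3.13% of the TPM of transcripts with an annotated intron.

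Levels of genes were compared next. A gene was given the TPM of all transcripts that hold one of its annotated introns. Because the assemblies differ so much in how much TPM lies in such transcripts, these were rescaled to 1000000 in each assembly, and all levels from here on are rescaled TPM. Native RNA gave a level to 9828 genes and cDNA to 11381. The 9429 genes at 10 or more in either chemistry were compared as log2 of the level plus 1, native RNA minus cDNA, with a 4-fold difference as the mark of a large one. The median difference was -0.32, with quartiles of -0.84 and 0.12. Native RNA was 4-fold or more higher at 172 genes (1.82%) and cDNA at 978 genes (10.4%). Of the 978, 715 were listed at 0 in native RNA, and of the 172, 41 were listed at 0 in cDNA. Genes at 0 entered only through a level of 10 or more in the other chemistry, which is past 4-fold by construction. Their calls record absence from 1 assembly and are not measured folds. In WT, native RNA was 4-fold or more higher at 158 of 9712 genes (1.63%) and cDNA at 729 (7.51%). With the deposited TPM the median of all genes would be 3.09, so differences are read against the median of their scale. Across genes the levels of the chemistries had a Spearman correlation of 0.827, and those of native RNA and cDNA correlated with the mean of the KO ladder libraries at 0.699 and 0.708, as a description over genes that are not independent replicates.

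**Figure D3:**
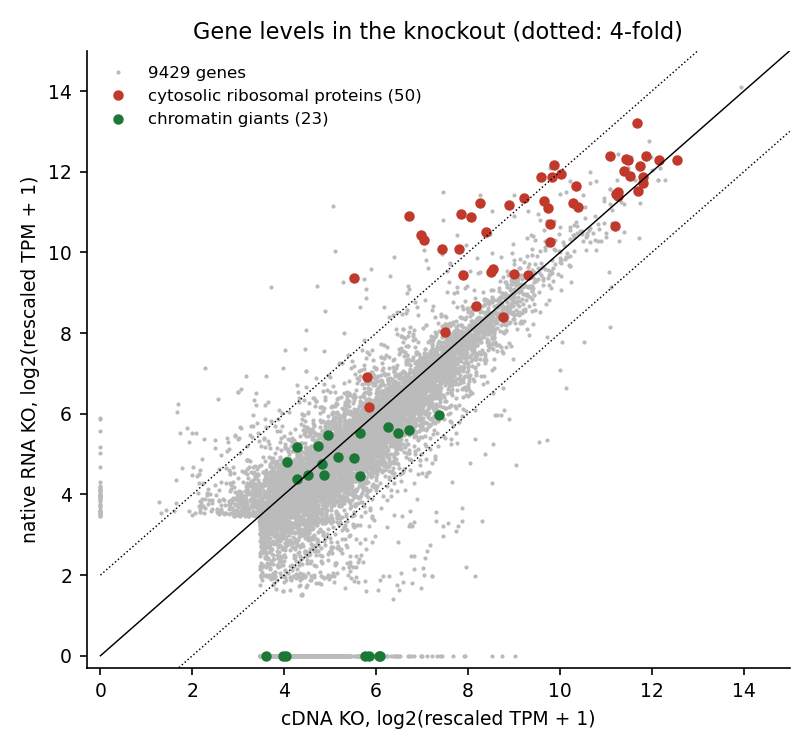
Each point is 1 of 9429 genes, with its cDNA level on the horizontal axis and its native RNA level on the vertical axis, both as log2 of rescaled TPM plus 1. Cytosolic ribosomal protein genes (red) lie mostly above the diagonal, and 7 chromatin genes (green) lie at 0 in native RNA.

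The genes named here were among the 10 highest in cDNA, and Eef1a1, Tmsb4x and Rps24 were so in native RNA too. Eef1a1, the elongation factor that brings tRNA to the ribosome, was the highest gene in each, at 17513 in native RNA and 15768 in cDNA, with 4882 ± 622 TPM in the ladder libraries (SD, n = 4). Tmsb4x, which binds actin monomers, was at 6977 and 3926, and Rps24 at 5051 and 4563. Ckb, a creatine kinase of brain, was at 4331 and 4647, and Fabp7, the fatty acid binding protein of radial glia, at 4239 and 4077. In WT, Fabp7 was at 12358 in native RNA and 120 in cDNA, so its near equality in the KO did not hold there.

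Ribosomal protein genes were the list with the largest shift toward native RNA. All 50 measured genes of the cytosolic ribosome had a level in both chemistries, 45 were higher in native RNA, and 15 were so by 4-fold or more, beside 1.82% of all genes. None was 4-fold higher in cDNA. Their median difference was 0.97, against -0.32 for all genes, and it was above the median of all genes with TPM as deposited (4.56 against 3.09) and with genes assigned by exon overlap (2.85 against 1.56). In WT, 44 of 50 were higher in native RNA, 11 of them by 4-fold, and the median was 0.87. Rps23 was at 1916 in native RNA and 105 in cDNA, with 1 transcript of 625 bases in native RNA and a main transcript of 4121 bases in cDNA, each of 4 exons. Rpl30 was at 662 and 44.7, Rpl24 at 1370 and 125, and Rps29 at 1257 and 131. At the other end Rpl22 was at 1623 and 2340, and Rpl32 at 5013 and 6014. Many ribosomal protein genes have near-identical processed copies, to which either chemistry may have lost reads, so these levels are uncertain.

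The genes of largest difference toward native RNA had long transcripts in cDNA. H3f3a, which codes for the histone variant H3.3, was at 2266 in native RNA and 32.2 in cDNA, with 649 ± 62.6 TPM in the ladder libraries (SD, n = 4). Its transcripts in the 2 chemistries had the same 4 exons by intron chain, but the native RNA one was 1055 bases long and the cDNA one 21199 bases, since its last exon ran on past the annotated end at chr1:180800832. Uqcrb, a subunit of respiratory complex III, was at 565 and 12.2, with transcripts of 533 and 27067 bases. Vti1b, a SNARE protein of vesicle fusion, was at 140 and 3.82, with main transcripts of 1031 and 44050 bases. Hmgn1, a nucleosome binding protein, was at 1055 and 33.5, and Sord, sorbitol dehydrogenase, at 64.7 and 2.19. In both, the main cDNA transcript ran on into a neighbouring gene, over 42673 and 84872 bases. TPM is counted per length, so a transcript that is assembled longer is given less TPM for the same reads, and the part of this in the differences was not tested.

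Longer cDNA transcripts were found at most of these genes. Of the 131 genes that had a level in both chemistries and were 4-fold higher in native RNA, the TPM-weighted mean transcript length had a median of 1504 bases in native RNA and 10270 in cDNA, and in 92 (70.2%) the cDNA length was 4 times the native RNA length or more. Among all 8673 genes with a level in both, 480 (5.53%) had such a length ratio, and among those within 4-fold 3.65%. The ribosomal protein genes showed it seldom, with 3 of 50 at a ratio of 4 or more and a median ratio of 1.18. Tuba1b belongs with the first kind, at 2895 in native RNA and 174 in cDNA, where its highest transcript ran into Lmbr1l over 17761 bases. In WT, 23 of the 156 genes 4-fold higher in native RNA in the KO that were also compared there were 4-fold higher again (14.7%, against 1.67% of all genes compared in both genotypes). Uqcrb, Vti1b and Hmgn1 were at 676, 119 and 735 in WT native RNA and at 671, 185 and 804 in WT cDNA.

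Another 5 genes of the largest differences were listed at 0 in cDNA, and no fold is given for them. Etfrf1, which binds an electron transfer flavoprotein, was at 57.1 in native RNA, Scand1 at 46.5, Triap1, a mitochondrial lipid carrier, at 35.2, the m6A writer Rbm15 at 31.4 and the elongator subunit Elp6 at 24.7. All but Rbm15 had a level in WT cDNA, and an intron of each was in the FLAIR assembly of KO cDNA.

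Genes of largest difference toward cDNA were mostly listed at 0 in native RNA, where a single-exon piece stood on their exons. Nes, the intermediate filament protein nestin that marks neural progenitors, was at 238 in cDNA and 0 in native RNA, and had 52.4 ± 14.1 TPM in the ladder libraries (SD, n = 4). Its cDNA transcript held the 4 annotated exons over 6146 bases, while native RNA had 1 exon of 2274 bases that ends at the same base, at chr3:87978179-87980452, with 44.1 deposited TPM. Nfia, a transcription factor of gliogenesis, was at 204 in cDNA, and its native RNA piece was 7659 bases long. Msi2, an RNA-binding protein of progenitors, was at 147, with a native RNA piece of 5290 bases, and Sox9, a transcription factor of progenitors and astrocytes, was at 125, with a piece of 3084 bases. Trim32, a ubiquitin ligase, was at 104 and has its whole coding sequence in the last of 2 exons. Vgll4, Hmgn5, Peg10, Cdh4, Arhgap35, Ints5 and Zfp664 were at 171, 160, 127, 125, 91.3, 89.2 and 87.2 in cDNA and at 0 in native RNA. All 12 had a single-exon native RNA transcript on their exons, with 20.95 to 63.6 deposited TPM.

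Pieces on any exon were counted over the whole set. Of the 715 genes listed at 0 in native RNA, 627 (87.7%) had a single-exon native RNA transcript on their exons, against 1266 of all 9429 genes compared (13.4%). The 1266 include the 627. A gene listed at 0 has by definition no native RNA transcript with one of its annotated introns. That definition thus favours a high share of single-exon pieces, although it does not require a gene to have one. Of the 715, 446 had one of their introns in the FLAIR assembly of native RNA. That assembly shares 22686 of its 23430 transcript names with the WT one and is not an independent check. With genes assigned by exon overlap, which counts these pieces, and the median set to 0, native RNA was 4-fold higher at 280 genes and cDNA at 489. The 12 genes above all stayed on the cDNA side, by -2.41 for Nfia to -0.10 for Trim32, but Nfia alone was still past 4-fold. Nes was at -1.78. Among the 8673 genes with a level in both, the counts were 131 and 263. In WT, 344 of the 798 genes 4-fold higher in cDNA in the KO that were also compared there were 4-fold higher again (43.1%, against 5.99% of all genes compared in both genotypes). Nes, Nfia, Vgll4, Hmgn5, Peg10, Trim32 and Ints5 were at 0 in WT native RNA too, while Zfp664 was at 72.4 and Sox9 at 107.

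Genes with few exons could have a level in native RNA and still be mostly in pieces. Olig2, a transcription factor of the oligodendrocyte lineage with 2 exons, was at 25.3 in native RNA and 529 in cDNA. Native RNA had 386 deposited TPM in a piece of 2339 bases on its last exon and 20.2 in the spliced transcript. Marcks, a membrane protein that binds actin and calmodulin, was at 39.8 and 847, with 821 deposited TPM in a native RNA piece of 3709 bases and 31.7 in the spliced transcript. In cDNA the spliced transcript of Marcks was 964 bases long, against 4191 in native RNA.

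Length of the annotated transcript ordered the differences. Here the main transcript of a gene is the annotated one with the most ladder counts. The median difference, native RNA minus cDNA, was -0.11 for 867 genes under 1 kb, -0.18 for 2146 genes of 1 to 2 kb, -0.35 for 3624 of 2 to 4 kb, -0.45 for 1732 of 4 to 6 kb and -0.82 for 1045 of 6 kb or more. WT gave -0.17, -0.26, -0.39, -0.49 and -0.77. The share of genes 4-fold higher in cDNA went from 3.81% under 1 kb to 32.6% at 6 kb or more, and that of genes listed at 0 in native RNA from 2.88% to 25.6%. By construction the genes listed at 0 in native RNA are all among those 4-fold higher in cDNA. Genes 4-fold higher in native RNA went from 5.07% to 0.478%. Without the genes listed at 0, the median at 6 kb or more was -0.44. Against the ladder libraries, the median of native RNA was 0.74 under 1 kb, 1.47 at 4 to 6 kb and 1.06 at 6 kb or more, while that of cDNA was 0.72, 1.94 and 2.00.

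**Figure D4:**
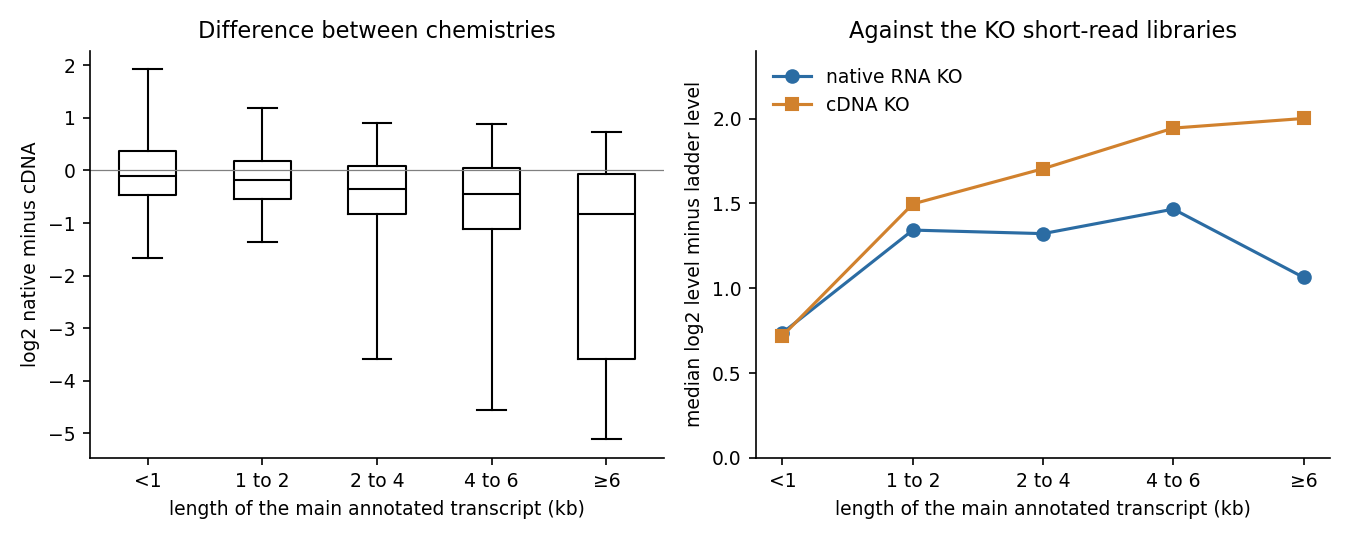
Left, boxes give the median and quartiles of the log2 difference in gene level, native RNA minus cDNA, by length of the main annotated transcript, with whiskers at the lowest and highest 5% of genes. Right, points give the median log2 level minus that of the KO ladder libraries, where cDNA lies above native RNA from 1 kb on and the gap is widest at 6 kb or more.

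Introns that native RNA lacked lay toward the 5′ end. The introns of each main transcript with 6 exons or more were put into 5 equal parts from the 5′ to the 3′ end, and those found in each assembly were counted. In 940 coding genes of 6 kb or more, native RNA held 15.2%, 19.6%, 25%, 39.2% and 63.8% of them, part by part, and cDNA held 91.5%, 93.2%, 93.5%, 91.6% and 94.9%. In 201 genes under 1 kb both were between 87.8% and 96.2% in every part. All introns were found for 13.4% of the genes of 6 kb or more in native RNA and for 67.2% in cDNA, and for 71.6% and 75.6% of those under 1 kb. For chains found in both chemistries, the coverage of the first exon over that of the last, as log2, had a median of -1.67 in native RNA and -1.16 in cDNA. At a native RNA length of 4 to 6 kb it was -2.63 and -0.88. Under 1 kb it was -0.66 and -1.09, so there the drop toward the first exon was larger in cDNA.

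**Figure D5:**
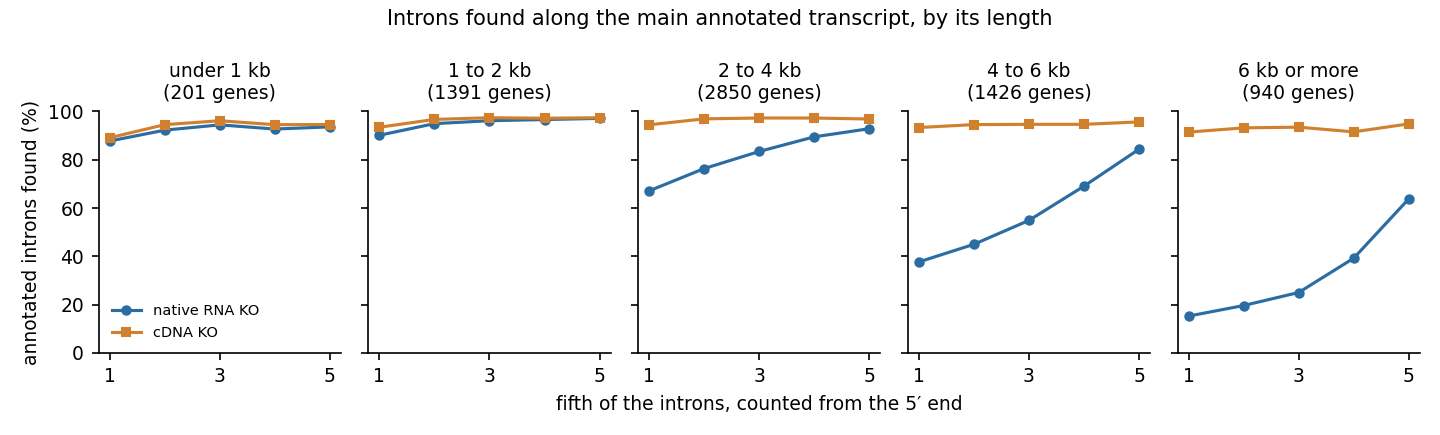
Each panel gives, for 1 length class of the main annotated transcript, the percent of annotated introns found in the KO assemblies in 5 equal parts from the 5′ end. The lines lie together under 2 kb, and above 2 kb the native RNA line falls toward the 5′ end while the cDNA line stays at 91.5% or more.

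Where both ends of an annotated chain could be compared with the annotation, the outer ends lay near it in both. The assembled 5′ end was within 50 bases of the annotated one for 64.8% of 8162 native RNA transcripts and 58.0% of 11980 cDNA transcripts. The median native RNA start lay 12 bases inside the annotated start. The median cDNA start lay outside it. Starts more than 500 bases outside were 1.10% and 6.81%. The 3′ end was within 50 bases for 61.6% and 57.3%, and more than 500 bases outside for 7.42% and 13.2%. FLAIR turned the order of the 5′ ends, with 61.1% in native RNA and 66.1% in cDNA.

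The m6A genes were near the median of all genes. Of 9 writers, 8 were compared, 1 was 4-fold higher in native RNA (Rbm15, listed at 0 in cDNA; 1.82% of all genes) and none in cDNA (10.4% of all genes), with a median of -0.51. In WT, none of 7 was 4-fold higher in native RNA and 1 was in cDNA. Mettl14 was at 17.2 in native RNA and 26.5 in cDNA, with 2.13 ± 0.410 TPM in the ladder libraries (SD, n = 4), and Mettl3, the catalytic subunit, at 19.5 and 26.5. Wtap, which anchors the complex in nuclear speckles, was at 20.9 and 71.6, Zc3h13, which keeps it in the nucleus, at 17.4 and 61.8, and Virma, its scaffold, at 34.5 and 30.2. Of 11 readers and erasers compared, 1 was 4-fold higher in cDNA, beside 10.4% of all genes. This was Fto, a demethylase, at 52.1 in cDNA and 0 in native RNA. Both assemblies held a single-exon piece on its last exon, with 53.1 deposited TPM in native RNA and 7.16 in cDNA, where the main spliced transcript had 3.19. Ythdf2, the reader that brings about mRNA decay, was at 177 and 293, and Ythdf1 at 179 and 137.

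Lists of large proteins have long mRNAs, and counts are read against the 10.4% of all genes and the 32.6% of genes of 6 kb or more that were 4-fold higher in cDNA. Of 23 chromatin proteins of great size that were compared, 7 were 4-fold higher in cDNA, all of them listed at 0 in native RNA, and none in native RNA, a share close to that of genes of 6 kb or more. The median was -0.61 against -0.32 for all genes, 2.65 against 3.09 with TPM as deposited and 1.52 against 1.56 by exon overlap. The 7 were Kmt2a, Kmt2d, Chd3, Chd7, Arid1a, Arid1b and Crebbp, at 11.2 to 67.0 in cDNA. Arid1a, a subunit of the BAF remodeller, was at 67.0 and had 59.1 deposited TPM by exon overlap in native RNA. Members that did have a level in native RNA could be higher there, as Trrap, a scaffold of acetyltransferases, at 26.8 and 15.8. The 16 with a level in both had transcripts of median length 2527 bases in native RNA and 9087 in cDNA, so their native RNA levels rest on shortened transcripts. Among 19 motor and cytoskeletal proteins of great size, 3 were 4-fold higher in cDNA and none in native RNA, a smaller share than that of genes of 6 kb or more, with a median of -0.53. Among the longest of them, Macf1, a linker of actin and microtubules, was at 47.5 and 37.3. Map1b, a microtubule protein of growing axons, was at 0 and 58.8, Kif1b, a kinesin, at 4.56 and 107, and Dync1h1, the heavy chain of dynein, at 70.4 and 31.4. Their transcripts had a median of 2979 bases in native RNA and 8458 in cDNA.

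None of 26 nuclear genes of the respiratory chain and none of 16 glycolysis genes differed by 4-fold, beside 12.2% of all genes, with medians of -0.15 and -0.27. In WT 1 gene of each list did, and the medians were -0.18 and 0.40. Among them Ndufa4 was at 1324 and 1509, Atp5b at 1687 and 1990, Eno1 at 1589 and 1185 and Pkm at 806 and 1194. Cox8a, at 2102 and 634, was the respiratory gene that stood furthest toward native RNA, and Pgam1, at 516 and 185, the glycolysis gene. Gapdh was at 7.66 and 13.2 by annotated introns while the ladder libraries gave 1112 ± 293 TPM (SD, n = 4). Gapdh has many processed copies, and its long-read level is uncertain.

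Genes of splicing factors stood near the median, with -0.10 over 22 genes. Srsf3, an SR protein, was at 744 in native RNA and 185 in cDNA, and Hnrnpf at 776 and 138. These 2 were 4-fold higher in native RNA, beside 1.82% of all genes. In WT they were at 335 and 374, and at 407 and 470. The 155 long non-coding genes compared had a median of -0.61. Of them, 2 were 4-fold higher in native RNA and 33 in cDNA, beside 1.82% and 10.4% of all genes. Among the 155, 21 were listed at 0 in native RNA and 1 in cDNA, which are past 4-fold by construction. Of 10 listed long non-coding RNAs and snoRNA hosts compared, 1 was higher in native RNA, and the median was -0.72. In cDNA 2 were 4-fold higher, beside 10.4% of all genes. Those 2 were Mir99ahg, a host of miRNAs, at 2.9 and 29.3, and Xist. Gas5, a snoRNA host, was at 684 and 1036, and Snhg6 at 580 and 860. Malat1, a nuclear RNA without a regular poly(A) tail, had no level by annotated introns, and its exons had 2.36 deposited TPM in native RNA and 141 in cDNA.

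In lists of cell types and of the cell surface, large differences were toward cDNA, as 10.4% of all genes were, and the numbers of genes are small. Of 13 neural progenitor genes compared, 2 were 4-fold higher in cDNA (Nes and Sox9) and none in native RNA, with a median of -0.16. Notch1, the receptor that holds progenitors back from differentiation, was at 64.1 and 26.6. Of 7 astrocyte genes, 1 was 4-fold higher in cDNA, the glutamate transporter Slc1a2, at 6.0 and 49.2. Of 4 neuron genes, 2 were 4-fold higher in cDNA, Map1b and the tubulin Tubb3, which was at 0 and 11.3, while Gap43, a protein of growth cones, was at 689 and 868. Of 3 oligodendrocyte genes, 2 were 4-fold higher in cDNA, Olig2 and the proteoglycan Cspg4, at 0 and 15.8. Of 18 matrix and adhesion genes, 1 was 4-fold higher in cDNA and none in native RNA, with a median of -0.27. This was Ncam1, the neural cell adhesion molecule, at 27.9 and 123. Sparcl1, a matrix protein of astrocytes, was at 303 and 560, and Fat1, a giant cadherin, at 74.5 and 39.3.

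Lists with few or no annotated introns were counted by whether a transcript lay on their exons. No share over all genes stands beside these counts. The cDNA assembly has more coverage and 24079 transcripts without a strand, which were counted on either strand. The part of this in the counts was not tested. Replication-dependent histone mRNAs end in a stem-loop in place of a poly(A) tail, and of 21 genes 5 had a transcript on their exons in native RNA and 16 in cDNA. WT gave 5 and 17. Of 30 coding genes listed as intronless, most of which have a poly(A) tail, 25 and 27 had one. Of 15 genes of the mitochondrial genome, 13 had a transcript in native RNA and 7 in cDNA, but in WT they were 12 and 13, so that order held in the KO alone.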

How the data were processed

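Neural progenitor cells of Mettl14 KO mice were sequenced as native RNA (2 libraries) and direct cDNA (2 libraries). The deposited TPM values are those of transcripts that StringTie 2.0 assembled in long-read mode, per the file headers, without a guide annotation and from both libraries of a group together. Reads were aligned with minimap2 2.17 to GRCm38 (mm10), per the submitters' processing notes. The settings of FLAIR and the number of reads per library are not given in the sources used here, and depth is known only as coverage. The authors' estimated counts and TPM of the 4 KO ladder libraries came from kallisto, per the submitters' processing notes.

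Transcripts were matched to GENCODE M21 by exact intron ends. A gene level is the summed TPM of transcripts holding an annotated intron of the gene, rescaled to 1000000 per assembly, and every gene with such an intron received it. Genes at 10 or more in either chemistry were compared as log2(level + 1), and 4-fold was the mark of a large difference. Fold changes on this scale understate the change of low genes. The main transcript of a gene is the annotated one with the highest summed estimated counts in the KO ladder libraries. With 1 assembly per chemistry no test was made. Exact binomial intervals (95%) cover counting error only. Sequence was read from GENCODE transcripts, so ends and introns outside annotated exons were not searched, although the design had assumed a genome. Retained introns, intron places, ends and levels were also computed for the WT assemblies.

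Genes named are Mettl14 and the m6A writers, the 10 highest in each chemistry, the 12 largest differences in each direction with 5 TPM or more in the ladder mean and a regular symbol, up to 2 members of each list with the largest difference each way and its highest member, and the 8 chains of highest TPM in each class. From these, examples were chosen for the text, and a few list members outside the rule were added after their values were seen, among them Slc1a3, Ndufa4, Atp5b, Eno1, Pkm, Snhg6, Rpl24 and Rps29. The members, lists and comparisons were chosen with earlier results of these data known. All columns used were mapped to their groups. The scripts were tested on simulated data. Tools were Python 3.11.15, numpy 2.4.6, pandas 2.3.3, scipy 1.17.1 and matplotlib 3.10.9. Alternatives changed the assembler, transcript number, scaling, pseudocount, filter, fold, gene assignment, transcript length and motif.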

Additional observations from a re-analysis of the deposited data

How the results depend on the processing

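No paired analysis was possible because both replicates of a chemistry share 1 assembly. For the same reason no library could be left out of an assembly. Leaving out each KO ladder library in turn gave Spearman correlations of 0.697 to 0.70 for native RNA and 0.707 to 0.711 for cDNA, and ladder counts scaled to the library total in place of TPM gave 0.569 and 0.628.

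FLAIR gave single-exon shares of 27.1% and 43.5% (native RNA, then cDNA), a cDNA median length of 1770 bases, chains in 1 chemistry only at 38.6% and 52.2%, annotated chains at 61.5% and 55.3% and annotated introns at 98.5% and 97.5%. Its ends lay within 50 bases of the annotation for 61.1% and 66.1% (5′) and 60.3% and 58.9% (3′). With the 19095 transcripts of highest TPM, cDNA had 15.2% single-exon and a median of 2090 bases, and chains in 1 chemistry only came to 50.4% and 53.5%. At 1 TPM or more, cDNA had 9995 transcripts, 10.1% single-exon, 1966 bases and 75.5% GT-AG. With part of a chain counted as found, chains in 1 chemistry only came to 19.6% and 66.4%. At 15 adenines the shares were 1.81% and 0.418%, and with ATTAAA the signal shares were 83.2% and 42.1%.

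Genes 4-fold higher in native RNA and in cDNA, 172 and 978, became 7167 and 11 with TPM as deposited, 109 and 604 at pseudocount 5, 334 and 1787 without a filter, 95 and 185 at 50 or more, 2130 and 316 by exon overlap, and 280 and 489 by exon overlap with the median at 0. They became 506 and 1950 at 2-fold, 85 at 8-fold for native RNA, and 263 for cDNA among genes with a level in both. The share higher in native RNA among these genes, 14.96%, was 99.8% as deposited, 87.1% by exon overlap and 36.4% with its median at 0. By exon overlap the median of all genes was 1.56. The median by length was -0.31, -0.38 and -0.70 at 2 to 4, 4 to 6 and 6 kb or more with the longest transcript, and -0.32, -0.31 and -0.44 for genes with a level in both. List medians as deposited and by exon overlap were 4.56 and 2.85 for ribosomal proteins, and 2.65 and 1.52 for chromatin proteins, whose sign turned with that of all genes (3.09 and 1.56). With the exon overlap median at 0, chromatin proteins had -0.045.

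By exon overlap, which counts single-exon pieces and moves all genes by 1.56, genes higher in cDNA changed sign: Arhgap35 to 1.14, Arid1a to 1.96, Arid1b to 0.75, Cdh4 to 0.88, Cspg4 to 0.93, Fto to 0.56, Hmgn5 to 0.17, Ints5 to 0.12, Kif1b to 1.89, Klhl11 to 2.03, Map1b to 1.56, Marcks to 2.25, Ncam1 to 0.81, Olig2 to 1.82, Peg10 to 1.04, Slc1a2 to 1.80, Sox9 to 0.12, Trim32 to 1.47, Vgll4 to 0.033 and Zfp664 to 1.12. With the median at 0, the sign stayed changed for Arid1a (0.40), Kif1b (0.32), Klhl11 (0.46), Marcks (0.69), Olig2 (0.26) and Slc1a2 (0.24) and for no other gene named. As deposited, Mir99ahg became 0.21, Ncam1 1.40 and Slc1a2 0.49, below the 3.09 of all genes. Results with a level in both chemistries, the centred exon overlap and stranded transcripts were chosen after seeing the data. Beyond what the construction of each alternative shows, the cause was not tested. Depth limits what a single assembly shows: coverage of spliced transcripts was 1.05 gigabases in native RNA and 1.66 in cDNA.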
